A study of Mus musculus with 119 samples.

Results

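The interferon regulatory factors (IRFs) are a family of transcription factors, and 8 of them were followed here at the level of mRNA in macrophages stimulated with LPS. The members were taken by gene symbol from the deposited expression table, namely Irf1, Irf2, Irf3, Irf4, Irf5, Irf7, Irf8 and Irf9, 8 of its 18098 genes. All 8 passed the filter on low values in both models described below.

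The study asked how TPL-2, the kinase that MAP3K8 encodes and that drives ERK1/2 signaling after Toll-like receptor stimulation, shapes the transcription of LPS-treated macrophages. It sequenced RNA of bone marrow-derived macrophages (BMDMs) in 25 groups of libraries. BMDMs are cells grown out of bone marrow in medium conditioned by L cells, which supplies macrophage colony-stimulating factor. All mice were of strain C57BL/6(NIMR), and LPS was given at 100 ng/ml.

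Wild-type (WT) BMDMs were taken without LPS and after 0.5, 1 and 2 h, with 6, 6, 6 and 4 libraries. BMDMs of Map3k8[D270A] mice, which carry a catalytically inactive TPL-2, had 6 libraries at each of the same 4 times. BMDMs of Elk1-/-Elk4-/- mice, which lack a pair of ternary complex factors that ERK phosphorylates, had 4 at each time. BMDMs of Nfkb1[SS/AA] mice, in which the serines of NF-κB1 p105 that IκB kinase phosphorylates are mutated, had 6 libraries each without LPS and after 0.5 and 1 h.

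WT BMDMs were also treated with PD0325901 (0.1 µM), an inhibitor of MKK1/2, the kinases that activate ERK1/2. PD0325901 was added 10 min before LPS and gave 6 libraries after 0.5 h with LPS and 6 after 1 h. The cells that received PD0325901 alone were taken after 10, 40 and 70 min, and cells in DMSO, the solvent, after 10 min, with 3 libraries each. RSKi47 (2 µM), an inhibitor of RSK kinases downstream of ERK1/2, was likewise added 10 min before LPS, with 4 libraries without LPS and at 1 and 2 h and 3 libraries at 0.5 h. The labels name no Cre driver for any allele, and the study describes LysM-Cre only with a floxed Fos allele, which is not among these groups. The mutations here were thus not described as limited to macrophages.

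IRFs bind related DNA elements in interferon-inducible promoters through a conserved amino-terminal domain. IRF3 is a latent cytoplasmic factor that TBK1 phosphorylates after TLR4 signals through TRIF, upon which it induces IFN-β, whereas IRF7 is itself interferon-inducible and amplifies the response. IRF9 is the DNA-binding subunit of ISGF3, the complex that type I interferon activates. IRF1 activates many genes of interferon and inflammatory responses, and IRF2 binds the same elements and can antagonize it. IRF5 and IRF4 bind MyD88 and act in opposite directions on inflammatory cytokine genes, and IRF8 partners PU.1 in the myeloid lineage.

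Promoter sequence is shown first for 4 members that moved in different ways. Irf1 was the member with the largest change after LPS, Irf2 was lower at 2 h, Irf8 fell and then rose, and Irf3 was the member whose 1 h level differed from WT in every other arm. Each stretch holds the 250 bases before the start of the gene in RefSeq (mouse GRCm38.p6), read 5′ to 3′ on the strand of the gene, which is the forward strand for all 4. Capitals mark matches to the motifs searched.
Irf1: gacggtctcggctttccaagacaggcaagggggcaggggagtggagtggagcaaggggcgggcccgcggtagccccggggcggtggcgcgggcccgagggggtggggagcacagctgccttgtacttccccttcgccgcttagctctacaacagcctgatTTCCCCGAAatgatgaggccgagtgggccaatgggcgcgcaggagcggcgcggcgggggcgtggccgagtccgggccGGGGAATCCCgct
Irf2: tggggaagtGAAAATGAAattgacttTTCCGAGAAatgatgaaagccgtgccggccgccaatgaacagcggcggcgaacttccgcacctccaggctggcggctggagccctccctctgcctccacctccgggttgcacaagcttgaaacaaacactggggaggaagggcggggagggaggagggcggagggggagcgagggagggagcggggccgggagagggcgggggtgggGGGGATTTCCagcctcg
Irf8: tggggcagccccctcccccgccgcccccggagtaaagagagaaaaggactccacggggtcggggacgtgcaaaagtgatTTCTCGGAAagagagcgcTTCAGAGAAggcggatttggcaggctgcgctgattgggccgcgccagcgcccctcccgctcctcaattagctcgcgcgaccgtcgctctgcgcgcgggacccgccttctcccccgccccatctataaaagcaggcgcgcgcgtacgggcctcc
Irf3: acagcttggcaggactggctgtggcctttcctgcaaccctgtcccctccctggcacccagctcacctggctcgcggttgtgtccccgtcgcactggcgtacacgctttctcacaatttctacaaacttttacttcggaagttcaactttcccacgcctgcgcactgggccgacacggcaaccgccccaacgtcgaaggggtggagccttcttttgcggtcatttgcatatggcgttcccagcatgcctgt
The stretches lie at chr11:53769764-53770013 for Irf1, chr8:46739495-46739744 for Irf2, chr8:120736108-120736357 for Irf8 and chr7:44997398-44997647 for Irf3. They end at the base before the annotated gene, so they precede its first exon. RefSeq held all 8 members, with a second start for Irf1, Irf8 and Irf9.

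The motifs were searched on both strands: an IRF core (GAAANNGAA), the NF-κB consensus, the GAS element (TTCNNNGAA), an ETS core (CCGGAA), an AP-1 site (TGANTCA) and the CArG box. Of the 32851 windows of the same length before all RefSeq starts, 7.13% held the IRF core, 7.25% the NF-κB consensus, 7.02% the GAS element, 12% the ETS core, 6.75% the AP-1 site and 1.47% the CArG box. The Irf1 window held an NF-κB match, found on both strands, 13 to 4 bases before the start, and a GAS match 90 to 82 bases before it. The Irf2 window held an IRF core (241 to 233 bases), a GAS match (224 to 216) and an NF-κB match (17 to 8). The Irf8 window held a pair of GAS matches, at 171 to 163 and 153 to 145 bases. These matches did not overlap each other. None of the 6 motifs was found in the windows of Irf3, Irf4, Irf5, Irf7 and Irf9, or in the second windows of Irf1 and Irf8. The Irf5 window (chr6:29526375-29526624) lay inside the annotated gene (29526130-29541869), so the bases before that gene were not searched. The Irf7 window (chr7:141266425-141266674, reverse strand) lay partly inside its gene, which ends at 141266499. A match describes letters in this window and does not show that a factor bound there.

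Values are given as normalized expression levels on a log2 scale, as the authors deposited them, and a difference is one between group means on that scale. Levels were not compared between genes, since they are not per length. Differences carry the standard error (SE) of the model, and p-values are from limma with Benjamini-Hochberg adjustment across the tested genes. A gene was called at an adjusted p below 0.05. In checks that leave out a replicate of an arm, its libraries of every time were removed. Depth per library is unknown from these values, and the p-values measure the spread between libraries, which the methods call biological replicates without naming the animal or culture of each.

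The macrophage markers were high throughout, with Adgre1 (F4/80) at 15.18 ± 0.041 (SD, n = 6) and Csf1r at 14.97 ± 0.10 in unstimulated WT BMDMs. T cell gene Cd3e was at -1.72 in the same libraries, close to the lowest values of the table. Elk1 and Elk4 mRNA matched their genotype: without LPS Elk1 was at 6.22 to 6.59 in Elk1-/-Elk4-/- libraries and 9.07 to 9.22 in WT, and Elk4 at 5.54 to 5.88 and 7.57 to 7.80. The Map3k8 and Nfkb1 alleles are point mutations, so the level of their mRNA is no check. Several libraries stood apart from the others of their group over all genes, among them RSKi47 replicate 4 without LPS and at 1 and 2 h, and WT replicate 7 at 2 h. Replicates 4 to 6 of WT and 1 to 3 of Map3k8[D270A] deviated together, as did WT 7 to 9 and Map3k8[D270A] 4 to 6. These are called the first and second replicate set. At 2 h WT replicate 7 was the only WT library of the second set, so its distance and that of its set cannot be told apart. The main models held no term for the set, so pooled 2 h differences from WT were not adjusted for this imbalance. By the labels WT and Map3k8[D270A] libraries belong to 1 experiment and each other arm to its own, with DMSO in that of PD0325901, and these WT libraries served as control for every arm. For Elk1-/-Elk4-/-, Nfkb1[SS/AA], PD0325901 and RSKi47, the arm and the experiment cannot be told apart, and there were no libraries of DMSO with LPS.

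In WT BMDMs all 8 members were called by 2 h of LPS, each with its own time course. Quantile normalization, which forces all libraries to 1 distribution, lost 4 of these calls, Irf2 and Irf5 at 1 h and Irf5 and Irf7 at 2 h, and added that of Irf9 as lower at 1 h. Irf1 rose at every time, Irf4 rose and fell back, Irf3 and Irf5 rose by 1 h, Irf8 fell before it rose, Irf2 rose slightly and then fell, and Irf7 and Irf9 rose at 2 h. At 0.5 h, 1 of 8 members was called, against 11.6% of 11884 genes tested. At 1 h, 6 of 8 were called against 46.8% of genes, and at 2 h all 8 against 71.5%, so the count at 2 h stood against a background in which most genes had changed.

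**Figure D1:**
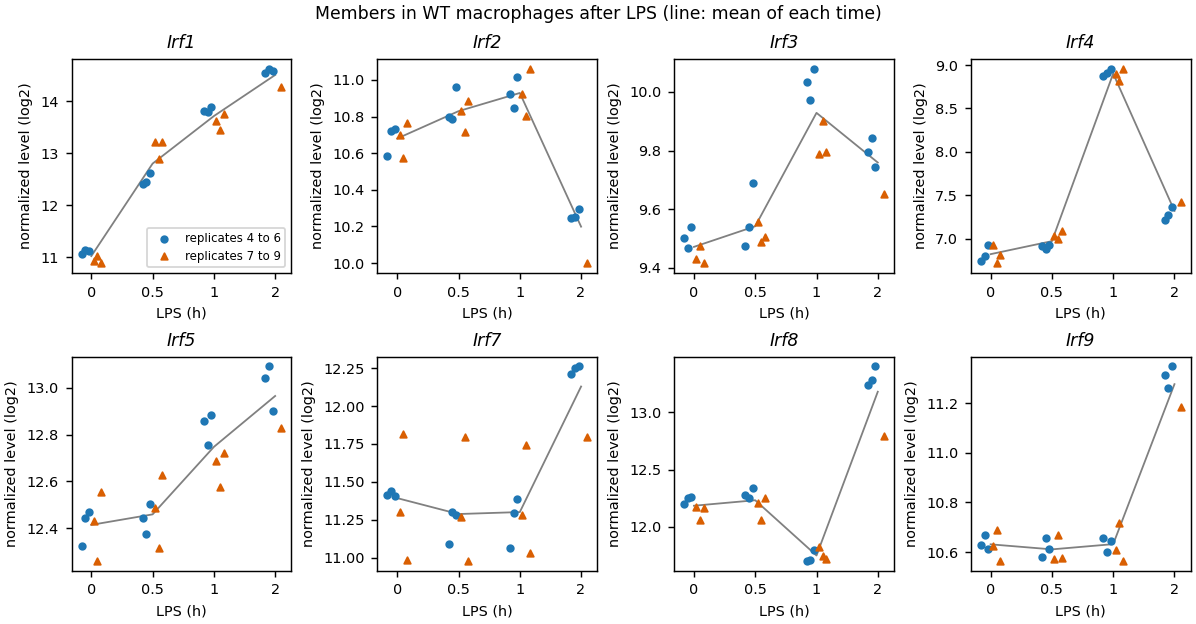
Normalized level (log2) of each member in WT BMDMs against time of LPS (h), with 1 point per library, circles for replicates 4 to 6, triangles for replicates 7 to 9, and a line through the mean of each time. Irf1 climbs at every step, Irf4 peaks at 1 h, and Irf8 dips at 1 h before its rise at 2 h.

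Irf1 showed the largest change. Its level without LPS ran from 10.89 to 11.14 (median 11.04), and at 0.5 h from 12.42 to 13.22 (median 12.76). The 1 h libraries lay between 13.45 and 13.88 (median 13.77), and the 2 h libraries were at 14.55, 14.63, 14.58 and 14.27. No pair of times overlapped. Irf1 had risen by 1.78 ± 0.092 (SE) at 0.5 h (adjusted p = 5.92e-23), by 2.69 ± 0.092 at 1 h and by 3.48 ± 0.10 at 2 h (adjusted p = 3.58e-35). It was the 1 member called at 0.5 h.

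Irf2, the antagonist of IRF1 at shared elements, moved by less and in both directions. It lay between 10.58 and 10.77 without LPS (median 10.71) and between 10.81 and 11.06 at 1 h (median 10.92). By 2 h it had reached 10.25, 10.25, 10.30 and 10.00, below every earlier library. Irf2 had risen by 0.25 ± 0.074 at 1 h (adjusted p = 0.00443, but 0.12 and adjusted p = 0.11 after quantile normalization) and was 0.48 lower than without LPS at 2 h (difference -0.48 ± 0.083, adjusted p = 1.01e-06). From 1 to 2 h it fell by 0.73 (adjusted p = 4.07e-11).

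Irf3, which transmits the TRIF signal to the Ifnb1 promoter, is usually regarded as regulated through phosphorylation. Its mRNA ran from 9.41 to 9.54 without LPS (median 9.47) and from 9.47 to 9.69 at 0.5 h (median 9.52). At 1 h it lay between 9.79 and 10.08 (median 9.94), above every library of the earlier times, and at 2 h it was at 9.80, 9.84, 9.75 and 9.65. The rise was 0.46 ± 0.044 at 1 h (adjusted p = 2.14e-13) and 0.29 ± 0.049 at 2 h (adjusted p = 6.77e-07), and Irf3 fell by 0.17 from 1 to 2 h (adjusted p = 0.00205).

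Irf7 and Irf9, members of the interferon response itself, moved late. Irf7 varied among libraries without LPS, from 10.99 to 11.82 (median 11.41), and was at 12.21, 12.25, 12.26 and 11.79 at 2 h. The lowest 2 h library, replicate 7, lay inside the range without LPS. Irf7 had risen by 0.74 ± 0.18 at 2 h (adjusted p = 0.000392). Within replicates 7 to 9, where only replicate 7 was taken at 2 h and was assumed to vary like the other groups, the rise was 0.43 and was not called (adjusted p = 0.269), nor was the rise over all replicates after quantile normalization (0.38, adjusted p = 0.0558).

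Irf9 was tighter. It ran from 10.56 to 10.69 without LPS and from 10.56 to 10.72 at 1 h, and was at 11.31, 11.26, 11.35 and 11.18 at 2 h. Its rise at 2 h was 0.65 ± 0.047 (adjusted p = 5.59e-18), and it was not called at 0.5 or 1 h. After quantile normalization it was called as lower at 1 h (-0.13, adjusted p = 0.00229).

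Irf4, which is known as a brake on MyD88 signaling and a factor of alternatively activated macrophages, had the sharpest peak. Its level lay between 6.71 and 6.93 without LPS (median 6.81) and between 8.82 and 8.96 at 1 h (median 8.90). The 2 h libraries were at 7.22, 7.27, 7.37 and 7.42, between those ranges. The rise at 1 h was 2.08 ± 0.069 (adjusted p = 9.07e-33), and from 1 to 2 h Irf4 fell by 1.58 (adjusted p = 5.03e-25), leaving it 0.50 ± 0.077 above the level without LPS (adjusted p = 8.25e-08).

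Irf5, which acts with MyD88 in the induction of inflammatory cytokines, rose in steps. It ran from 12.26 to 12.56 without LPS (median 12.44) and from 12.58 to 12.88 at 1 h (median 12.74), and was at 13.04, 13.09, 12.90 and 12.83 at 2 h. The rise was 0.33 ± 0.063 at 1 h (adjusted p = 1.21e-05) and 0.55 ± 0.071 at 2 h (adjusted p = 8.66e-10). After quantile normalization neither was called, at 0.10 (adjusted p = 0.128) and 0.12 (adjusted p = 0.0816).

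Irf8, a partner of PU.1 in macrophages and dendritic cells, went down before it went up. It lay between 12.06 and 12.26 without LPS (median 12.19) and between 11.70 and 11.83 at 1 h (median 11.73). At 2 h it was at 13.24, 13.28, 13.40 and 12.80, above all others. Irf8 fell by 0.43 at 1 h (SE 0.13, adjusted p = 0.00311) and had risen by 0.99 ± 0.14 at 2 h (adjusted p = 9.68e-09).

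From 0.5 to 1 h, 5 members were called (Irf1, Irf3, Irf4, Irf5 and Irf8), against 40.3% of genes, and Irf8 was the 1 that fell. From 1 to 2 h all 8 were called, against 65.3% of genes, with Irf2, Irf3 and Irf4 lower and the other 5 higher. Leaving out any 1 WT replicate did not change the 15 member and time calls against no LPS.

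Other genes of the pathway moved as follows in WT BMDMs, in lists chosen with earlier results of these data known. Of 15 genes that lead from TLR4 to the IRFs, 10 rose and 1 fell at 1 h (median difference 0.34), and 12 rose and 2 fell at 2 h (median 0.65), read against the 46.8% and 71.5% of all genes called. At 1 h these included Cd14, the LPS co-receptor, by 1.58, Tank, a scaffold of TBK1, by 1.21, Ticam1, which encodes TRIF, by 0.97, and Traf6 by 0.60. Of 11 partners and corepressors of IRFs, 4 rose and 3 fell at 1 h, among them Ets2 (1.31), Irf2bp1 (-0.69) and Stat2 (-0.54). At 2 h 8 of them rose and 2 fell, with Batf higher by 2.90 and the corepressor Irf2bp2 lower (-2.48).

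Of the type I interferon genes and their receptor pathway, 7 of 9 were tested, and 5 rose at 1 h and all 7 at 2 h. Ifnb1, which encodes IFN-β, had risen by 3.34 at 1 h and 3.62 at 2 h, and Socs1, an inhibitor of the interferon receptor, by 1.53 and 4.63. Of 20 targets of ISGF3 and IRF3, 1 was higher at 0.5 h, 8 at 1 h and all 20 at 2 h, when their median difference was 3.0 and Cxcl10 had risen by 6.00. Of 12 targets of IRF1, 1, 6 and 12 rose at the 3 times, with Il12b higher by 7.88 and Nos2 by 6.65 at 2 h. Of all genes 7.82%, 23.8% and 34.7% rose at these times. The median over all genes stayed between -0.02 and 0.03 in every comparison.

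In Map3k8[D270A] BMDMs, which lack TPL-2 activity, Irf3 was the member that differed most clearly from WT. Its 1 h rise was smaller. Irf4 was lower at 2 h, by more in the first replicate set (-0.44) than in the second (-0.18), where WT had 1 library. The comparison asked which IRF mRNAs follow TPL-2 signaling after LPS. Without LPS and at 0.5 h no member was called, against 1.44% and 1.37% of genes. At 1 h 2 members were called (Irf1 and Irf3) against 9.79%, and at 2 h 4 (Irf2, Irf3, Irf4 and Irf9) against 27.7%.

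Irf3 in Map3k8[D270A] libraries ran from 9.40 to 9.43 without LPS, from 9.35 to 9.50 at 0.5 h and from 9.51 to 9.61 at 1 h (median 9.52). The 1 h values were below all 6 WT libraries of that time, the lowest of which was 9.79. The difference was -0.39 ± 0.044 at 1 h (adjusted p = 9.21e-10) and -0.17 ± 0.049 at 2 h (adjusted p = 0.00755), where mutant levels from 9.47 to 9.79 overlapped those of WT. Without WT replicate 5 the 2 h difference was -0.14 and not called (adjusted p = 0.0592), nor was it called in the first replicate set alone (-0.10, adjusted p = 0.116). In the second set, with 1 WT library at 2 h, it was -0.16. Within the mutant, Irf3 rose by 0.13 at 1 h (adjusted p = 0.0156). The test of the response itself, the change from no LPS in the mutant less that in WT, gave -0.33 ± 0.062 at 1 h (adjusted p = 0.000333). It was called in all 12 refits that left out 1 replicate of either genotype, and in both replicate sets, at -0.38 (adjusted p = 0.00103) and -0.28 (adjusted p = 0.0118).

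**Figure D2:**
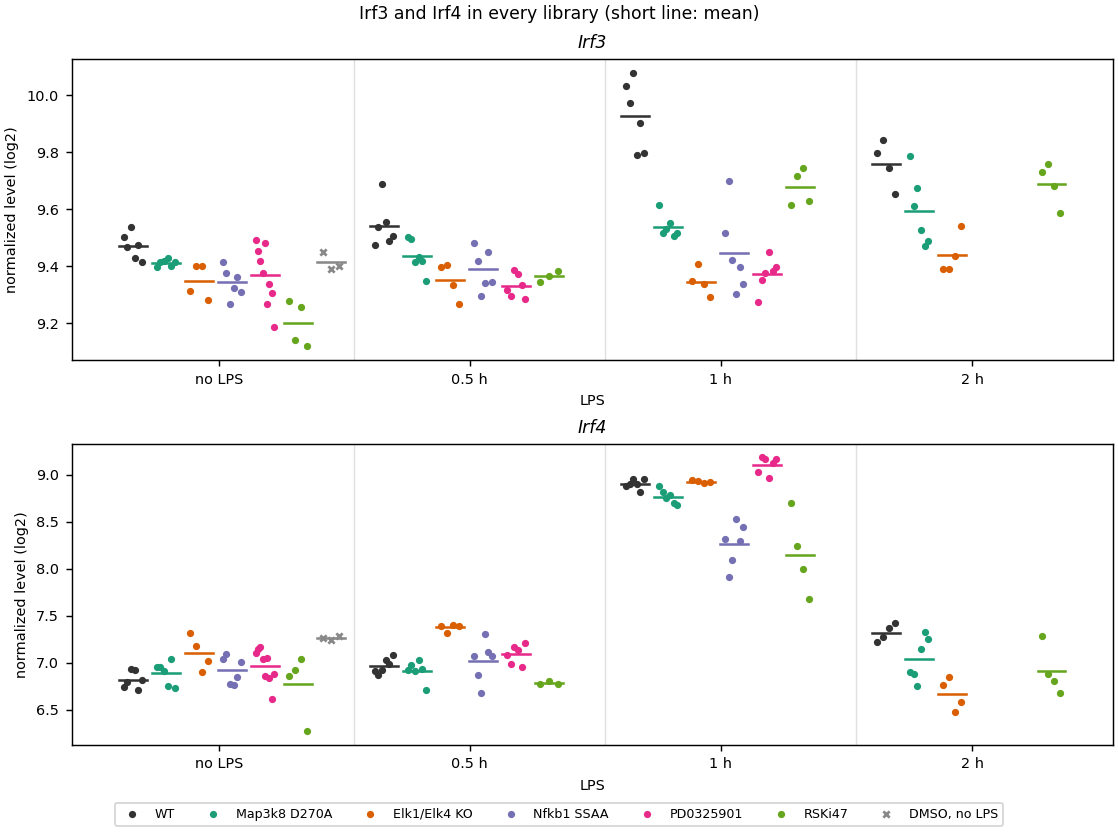
Normalized level (log2) of Irf3 and Irf4 in every library of each arm without LPS and after 0.5, 1 and 2 h of LPS, with 1 point per library and a short line at each mean. The PD0325901 points without LPS pool its 10, 40 and 70 min libraries. At 1 h the WT and RSKi47 libraries of Irf3 sit at 9.61 or above, while the highest libraries of Nfkb1[SS/AA] (9.70) and Map3k8[D270A] (9.61) reach the RSKi47 range. For Irf4 the Nfkb1[SS/AA] and RSKi47 libraries sit below all WT libraries.

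Irf4 at 2 h was at 6.90, 6.89, 6.75, 7.14, 7.33 and 7.26 in Map3k8[D270A] replicates 1 to 6, against 7.22 to 7.42 in WT. Replicates 1 to 3 were below all WT libraries. The difference was -0.27 ± 0.077 (adjusted p = 0.00493) and that of the responses -0.35 ± 0.10 (adjusted p = 0.0143). Leaving out Map3k8[D270A] replicate 1, 2 or 3 brought the latter to -0.30, -0.30 or -0.28, and it was then not called (adjusted p up to 0.0576). In the fit of all libraries the response difference was not called either (-0.35, adjusted p = 0.0832). Within the first replicate set the 2 h level of Irf4 differed by -0.44 (adjusted p = 1.91e-05) and the response by -0.56 (adjusted p = 0.000169). In the second set, where WT had 1 library at 2 h, they differed by -0.18 and -0.20.

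Of all response differences in this genotype, 0 members were called at 0.5 h against 0.109% of genes, 1 (Irf3) at 1 h against 2.02%, and 1 (Irf4) at 2 h against 15.5%. Within the first replicate set alone, 5 members were called at 2 h against 24% of genes: Irf1 (0.30), Irf2 (0.43), Irf4 (-0.56), Irf8 (0.50) and Irf9 (0.25). The second set had 1 WT library at 2 h, so its calls at that time are not set beside these. Irf1 was higher in Map3k8[D270A] at 1 h, from 13.89 to 14.10 against 13.45 to 13.88 in WT, by 0.28 ± 0.092 (adjusted p = 0.0453). That call was lost without any of Map3k8[D270A] replicates 1 to 5 or WT replicates 7 and 8, with differences from 0.22 to 0.31 and adjusted p up to 0.142. By replicate set the 1 h difference was 0.16 and not called in the first (adjusted p = 0.0886) and 0.40 in the second (adjusted p = 0.00873). Irf2 was higher by 0.29 ± 0.083 at 2 h (adjusted p = 0.00644), but not without WT replicate 7 (0.22, adjusted p = 0.0668). Irf9 was higher by 0.13 ± 0.047 at 2 h (adjusted p = 0.0378), a call lost without Map3k8[D270A] replicate 1, 2 or 3 or WT replicate 4, 5 or 7 (0.09 to 0.17, adjusted p up to 0.177). The replicate number as a block within arms also lost this call (adjusted p = 0.0536) and that of Irf1 at 1 h (adjusted p = 0.0926). In the first replicate set the 2 h differences were 0.52 for Irf2 (adjusted p = 8.29e-09) and 0.26 for Irf9 (adjusted p = 5.17e-07). In the second, with 1 WT library at 2 h, they were 0.19 and 0.05.

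The replicate sets themselves differed in ways that the pooled values hide. Irf8 at 2 h was at 13.74, 13.64 and 13.76 in Map3k8[D270A] replicates 1 to 3 and at 12.63, 12.54 and 12.53 in replicates 4 to 6. Against WT of the same set, Irf8 was 0.40 higher in the first set (adjusted p = 1.99e-06) and -0.23 apart in the second, where WT had 1 library. Irf7 at 2 h was at 12.57 to 12.67 in replicates 1 to 3 and 11.49 to 11.79 in replicates 4 to 6. The difference of Irf7 from WT was 0.38 in the first set, not called (adjusted p = 0.0671), and -0.18 in the second.

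Irf1 at 0.5 h split on the side of WT. WT replicates 4 to 6 were at 12.42, 12.46 and 12.62, and replicates 7 to 9 at 13.22, 12.89 and 13.21, whereas all Map3k8[D270A] libraries lay between 12.27 and 12.69. The genotypes were not called as different in the first set (0.00, adjusted p = 0.987), and in the second Irf1 was lower in the mutant by 0.62 (difference -0.62, adjusted p = 3.25e-05), as was its 0.5 h response (difference -0.60, adjusted p = 0.0152). The pooled difference was -0.31 and was not called (adjusted p = 0.0802), though it was without WT replicate 4 or 5 (adjusted p down to 0.0147). The Irf1 difference at 2 h (0.25, adjusted p = 0.0644) was likewise called without Map3k8[D270A] replicate 5 or 6 or WT replicate 5 or 9, and in the first set alone (0.32, adjusted p = 0.000102). In the second set, with 1 WT library at 2 h, it was 0.33. Irf5 at 2 h was called in the first set (0.25, adjusted p = 7.04e-05), and its difference in the second was 0.00. What distinguishes the sets is not stated in the labels.

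**Figure D3:**
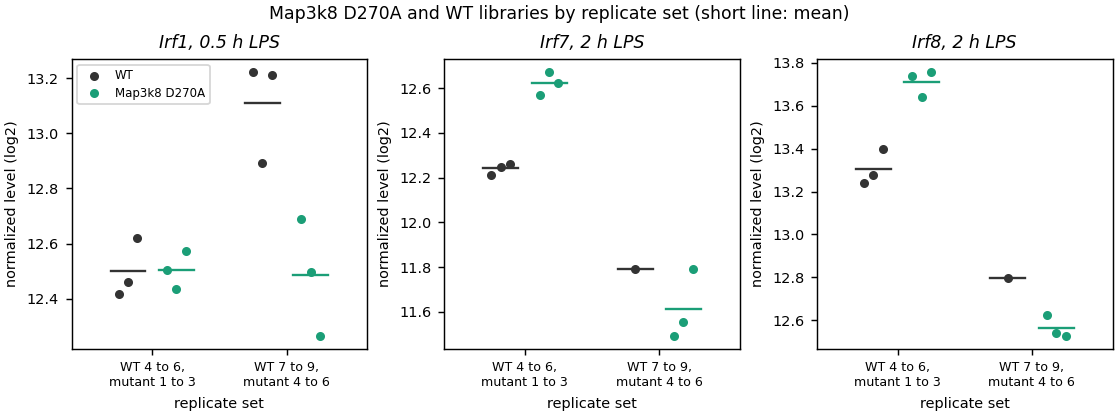
Normalized level (log2) of Irf1 at 0.5 h and of Irf7 and Irf8 at 2 h of LPS in WT and Map3k8[D270A] libraries, split by replicate set, with 1 point per library and a short line at each mean. WT has 1 library in the second set at 2 h. The Map3k8[D270A] libraries of the first set lie above those of the second for Irf7 and Irf8.

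Among the pathway lists, Ifnb1 responded more strongly in Map3k8[D270A] at 1 h, by 1.26 over WT (adjusted p = 1.99e-06), whereas Ticam1 responded less (-0.25, adjusted p = 0.0296). None of the 20 ISGF3 and IRF3 targets differed in response at 1 h and 1 did at 2 h, and none of the 12 IRF1 targets differed at either time, against 2.02% of all genes at 1 h and 15.5% at 2 h. In level without LPS no gene of either target list was called, against 1.44% of all genes.

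Elk1-/-Elk4-/- BMDMs differed from WT in a wider set of members, and before LPS was added. Irf7 was higher at every time, and Irf9 was too, though several settings lost its 2 h call. Irf3 was lower at every time against WT, with a smaller 1 h response, and by 2 h Irf4 was lower and Irf2 and Irf5 were higher. Without LPS 6 members were called against 51.8% of genes, at 0.5 h 5 against 44.4%, at 1 h 3 against 53.4% and at 2 h 6 against 50.8%. The share of members called was above that of all genes without LPS and at 0.5 and 2 h and below it at 1 h. Neutrophil and precursor markers, described below, also differed between these libraries.

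Irf7 without LPS was at 13.10, 12.91, 13.22 and 12.50 in Elk1-/-Elk4-/- libraries, all above the WT range of 10.99 to 11.82. After 2 h of LPS it was at 13.21, 13.46, 13.52 and 13.34, and at no time did the genotypes overlap. The difference was 1.54 ± 0.18 without LPS (adjusted p = 1.1e-09), 1.47 at 0.5 h, 1.44 at 1 h and 1.26 ± 0.20 at 2 h (adjusted p = 8.51e-07). Leaving out any 1 replicate kept the call without LPS, with differences from 1.44 to 1.68. The LPS response of Irf7 was not called as different from that of WT at any time.

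Irf9 without LPS was at 11.09, 11.04, 11.05 and 10.97, above 10.56 to 10.69 in WT. The difference was 0.41 ± 0.047 (adjusted p = 5.11e-10), 0.38 at 0.5 h and 0.43 at 1 h. At 2 h Elk1-/-Elk4-/- libraries lay between 11.39 and 11.45 and WT between 11.18 and 11.35, a difference of 0.13 ± 0.052 (adjusted p = 0.0315) that was lost without knockout replicate 1 or 2 or WT replicate 5 or 7 (0.10 to 0.15, adjusted p up to 0.14). Quantile normalization (0.09, adjusted p = 0.0927), the fit of all libraries (0.13, adjusted p = 0.115) and a block by number across arms (0.07, adjusted p = 0.264) lost it too. The 2 h response of Irf9 was smaller than in WT by 0.28 (difference -0.28 ± 0.070, adjusted p = 0.00353).

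**Figure D4:**
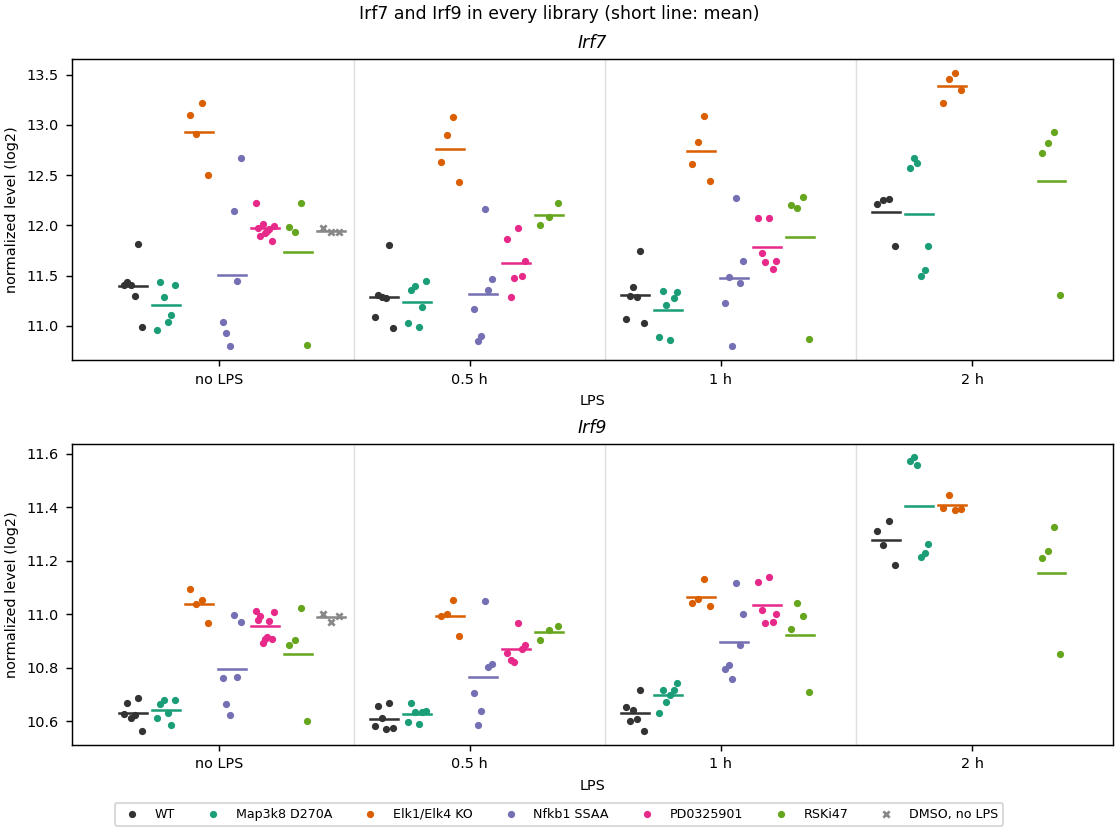
Normalized level (log2) of Irf7 and Irf9 in every library of each arm without LPS and after 0.5, 1 and 2 h of LPS, with 1 point per library and a short line at each mean. The PD0325901 points without LPS pool its 10, 40 and 70 min libraries. Elk1-/-Elk4-/- libraries of Irf7 lie at 12.43 or above at every time, and DMSO libraries of Irf9 lie at 10.97 to 11.00, above all WT libraries without LPS.

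Irf3 in Elk1-/-Elk4-/- BMDMs changed little over the course. Its levels were 9.31, 9.40, 9.40 and 9.28 without LPS and 9.35, 9.41, 9.34 and 9.29 at 1 h, and at 2 h 9.39, 9.39, 9.44 and 9.54. The 1 h libraries were all below the lowest WT library, at 9.79, and within the knockout the change at 1 h was not called (adjusted p = 0.977). The difference from WT was -0.12 ± 0.049 without LPS (adjusted p = 0.0320), -0.19 ± 0.049 at 0.5 h (adjusted p = 0.00126), -0.58 ± 0.049 at 1 h (adjusted p = 3.08e-14) and -0.32 ± 0.053 at 2 h (adjusted p = 1.74e-06). The call without LPS was lost without knockout replicate 1 or 4 or WT replicate 4 or 6 (-0.14 to -0.10, adjusted p up to 0.115). The response at 1 h was lower than that of WT by 0.46 (difference -0.46 ± 0.069, adjusted p = 1.45e-05), and at 2 h the difference was not called (-0.20, adjusted p = 0.0507), though it was without knockout replicate 4 or WT replicate 6 or 7 (adjusted p down to 0.0198).

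Irf4 turned from higher to lower over the course. It was at 7.31, 7.18, 6.91 and 7.02 without LPS, at 8.95, 8.93, 8.91 and 8.92 at 1 h, and at 6.77, 6.85, 6.47 and 6.58 at 2 h, below the WT range of 7.22 to 7.42. The difference was 0.28 ± 0.077 without LPS (adjusted p = 0.00165), 0.41 ± 0.077 at 0.5 h (adjusted p = 2.17e-05) and -0.65 ± 0.084 at 2 h (adjusted p = 6.62e-09), and it was not called at 1 h. The 2 h response differed by -0.94 ± 0.11 (adjusted p = 2.02e-08), and within the knockout Irf4 was then 0.44 below its level without LPS (difference -0.44).

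Irf2 and Irf5 were the members that stood higher at 2 h. Irf2 was at 10.85, 10.82, 10.66 and 10.89, against 10.00 to 10.30 in WT, so no library reached the low levels of WT. Its difference was 0.61 ± 0.091 (adjusted p = 2.1e-07) and that of its response 0.61 ± 0.12 (adjusted p = 0.000257). Irf5 was at 12.17 to 12.24 without LPS, 0.21 below WT (difference -0.21 ± 0.071, adjusted p = 0.0100), and at 13.19 to 13.31 at 2 h, 0.26 ± 0.077 above it (adjusted p = 0.00374), with a larger response (0.48 ± 0.10, adjusted p = 0.000725).

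Irf1 and Irf8 were called at 1 time each. Irf1 at 0.5 h was 0.40 ± 0.10 higher (adjusted p = 0.00144), at 13.10 to 13.38, which overlapped WT replicates 7 to 9. Irf8 without LPS was lower (-0.36 ± 0.14, adjusted p = 0.0293), a call lost without knockout replicate 1, 2 or 4 or WT replicate 5 or 6 (adjusted p up to 0.116) and, with the replicate number as a block within each arm, at an adjusted p of 0.0570. Without WT replicate 8, Irf8 was also called as lower at 0.5 h (adjusted p = 0.0478) and Irf5 at 0.5 and 1 h, the latter without WT replicate 7 too. Of response differences, 0 members were called at 0.5 h against 0.0589% of genes, 1 (Irf3) at 1 h against 1.35%, and 4 (Irf2, Irf4, Irf5 and Irf9) at 2 h against 16.9%.

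Other values moved with this genotype. Of 8 neutrophil and precursor markers 5 were tested, and all 5 were higher in Elk1-/-Elk4-/- libraries, with a median difference of 3.78 without LPS, 3.64 at 1 h and 4.38 at 2 h. The summed level of the 8 markers ran, as log2, from 10.04 to 10.53 without LPS, against 6.36 to 7.19 in WT, with Mpo at 1.51 to 2.23 against 0.70 to 0.73. The 1 B cell marker tested of 4 was higher by 0.69, and of 8 macrophage markers 2 were higher and 3 lower. Of 6 dendritic cell markers 2 were tested and 1 was higher, of 5 glial markers 2 were tested and both were lower, and of 4 T and NK cell markers 0 passed the filter. Of 20 ISGF3 and IRF3 targets 19 were higher without LPS (median 0.86, with 27.2% of all genes higher), among them Ifit2 by 1.62 and Ifit3 by 1.33, as were 16 at 2 h (median 0.66, with 27.7% of all genes higher). In bulk RNA more or fewer cells of a type and more or less RNA per cell cannot be told apart, and the part of other cell types in the differences of Irf7 and Irf9 was not tested.

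DMSO libraries gave a second control without LPS, from another experiment than WT, and this comparison was added after the data had been seen. Against DMSO 2 members were called in Elk1-/-Elk4-/- libraries, against 38.1% of genes. Irf7 remained higher (0.99 ± 0.30, adjusted p = 0.0052), Irf5 was lower (-0.18 ± 0.070, adjusted p = 0.0386), and Irf9 (0.05, adjusted p = 0.648) and Irf4 (-0.16, adjusted p = 0.317) were not called. Irf3 (-0.07, adjusted p = 0.393) and Irf8 (-0.08, adjusted p = 0.71) were not called either, nor was Irf1, whose difference was 0.22 against WT (adjusted p = 0.0728) and -0.29 against DMSO (adjusted p = 0.0526). DMSO libraries themselves differed from WT in 3 members, Irf1 by 0.50 ± 0.11 (adjusted p = 0.000418), Irf4 by 0.45 ± 0.12 (adjusted p = 0.00263) and Irf9 by 0.36 ± 0.071 (adjusted p = 7.83e-05), against 23.6% of genes. In them 17 of 20 ISGF3 and IRF3 targets were higher than in WT (median 0.79), where 12.5% of all genes were higher, as were all 5 neutrophil markers tested (median 1.35).

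In Nfkb1[SS/AA] BMDMs, where p105 cannot be phosphorylated by IκB kinase on those serines, Irf3 and Irf4 both fell short of WT at 1 h. Irf1 was higher without LPS and at 0.5 h. Without LPS 3 members were called against 32% of genes, at 0.5 h 3 against 32.3% and at 1 h 5 against 42.5%. The response differed in no member at 0.5 h, against 0.309% of genes, and in 2 members at 1 h, against 6.07%.

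Irf3 ran from 9.27 to 9.42 without LPS (median 9.34), and at 1 h was at 9.52, 9.70, 9.42, 9.30, 9.40 and 9.34. Replicate 2, which stood apart over all genes, was the highest and still below every WT library. The difference from WT at 1 h was -0.48 ± 0.044 (adjusted p = 1.14e-16) and that of the responses -0.35 ± 0.062 (adjusted p = 1.11e-05). Leaving out any 1 replicate gave responses from -0.40 to -0.33 apart, all called.

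Irf4 lay between 6.76 and 7.10 without LPS (median 6.93) and between 7.91 and 8.53 at 1 h (median 8.31), below all WT libraries of 1 h. It rose by 1.34 within the genotype. The difference from WT at 1 h was -0.63 ± 0.095 (adjusted p = 2.56e-08) and that of the responses -0.74 ± 0.13 (adjusted p = 2.24e-05), with -0.82 to -0.63 when 1 replicate was left out.

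The other members moved less. Irf1 was higher by 0.34 ± 0.092 without LPS (adjusted p = 0.0021) and by 0.69 ± 0.092 at 0.5 h, with 13.31 to 13.66 against 12.42 to 13.22 in WT (adjusted p = 1.26e-09). WT replicates 7 to 9 made up the upper part of that WT range, so the size depends on the set used. The 0.5 h response of Irf1 was not called as different from that of WT (0.26 to 0.46 without any 1 replicate). Irf3 was lower without LPS (-0.13 ± 0.044, adjusted p = 0.0180, a call lost without Nfkb1[SS/AA] replicate 3) and at 0.5 h (-0.15 ± 0.044, adjusted p = 0.00438). Irf9 was higher by 0.17 without LPS, 0.16 at 0.5 h and 0.26 ± 0.058 at 1 h (adjusted p = 0.000107). The first of these was lost without replicate 4 or 6, and the second without replicates 4, 5 or 6 or WT replicates 4, 7 or 9 (adjusted p up to 0.17).

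Irf5 (-0.13 ± 0.053, adjusted p = 0.0323) and Irf8 (-0.29 ± 0.12, adjusted p = 0.0332) were lower at 1 h. Leaving out Nfkb1[SS/AA] replicate 3, 5 or 6 or WT replicate 6 lost either call, as did WT replicate 4 for Irf5 and WT replicate 7 for Irf8, with adjusted p up to 0.112 and 0.0674. Against DMSO, a control added after the data had been seen, 2 members differed without LPS, against 18.1% of genes, and both were lower, Irf4 by 0.34 (difference -0.34, adjusted p = 0.0277) and Irf9 by 0.19 (difference -0.19, adjusted p = 0.0482). The sign of Irf9 thus depended on the control, and Irf1 was not called there (-0.16, adjusted p = 0.345).

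Among the lists, 9 of 20 ISGF3 and IRF3 targets were higher in Nfkb1[SS/AA] without LPS (median 0.48) and 13 at 1 h (median 0.62), where 16.9% and 20.5% of all genes were higher, led by Ifit2 (1.78) and Cxcl10 (1.62), while none differed in response. Ifnb1 responded more strongly by 2.94 at 1 h (adjusted p = 1.06e-10), and of the TLR4 list Ticam1 responded more (0.25, adjusted p = 0.0109). Of 5 neutrophil markers tested, 0 were higher without LPS and 3 at 1 h (median 0.51), and their summed level was 6.85 to 7.45 without LPS. Their part in these differences was not tested.

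PD0325901, the MKK1/2 inhibitor, also went with a lower Irf3 after LPS, whereas the 1 h response of Irf4 was not called as different from that of WT. Irf9 was higher at both times and Irf1 at 1 h. The comparison of LPS with and without the inhibitor asked which changes need ERK1/2 activation. At 0.5 h 2 members were called against 29.4% of genes and at 1 h 4 against 35.7%. The response, taken from PD0325901 alone at the matched time, differed in no member at 0.5 h against 1.49% of genes, and in 1, Irf3, at 1 h against 3.58%.

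Irf3 with PD0325901 and LPS ran from 9.29 to 9.39 at 0.5 h (median 9.33) and from 9.27 to 9.45 at 1 h (median 9.38). With PD0325901 alone it was at 9.49, 9.45 and 9.42 after 10 min, 9.38, 9.48 and 9.27 after 40 min and 9.34, 9.30 and 9.18 after 70 min. The 1 h libraries with LPS thus fell among those without it, and below all WT libraries with LPS. The difference from WT was -0.21 ± 0.044 at 0.5 h (adjusted p = 0.000114) and -0.56 ± 0.044 at 1 h (adjusted p = 1.93e-19). The change from PD0325901 alone to 1 h LPS was 0.10 and not called (adjusted p = 0.149), and the response differed from that of WT by -0.36 ± 0.070 (adjusted p = 0.000115), in a range of -0.41 to -0.31 without any 1 replicate.

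Irf4 was at 8.96 to 9.19 (median 9.15) with PD0325901 after 1 h of LPS, against 8.82 to 8.96 in WT. The difference was 0.21 and not called (adjusted p = 0.0791), nor was that of the responses (0.25 ± 0.15, adjusted p = 0.505). Within the arm Irf4 rose by 2.33 over PD0325901 alone at 70 min (adjusted p = 2.58e-34), where it was at 6.84, 6.62 and 6.88. With the replicate number as a block, the differences between 70 and 10 min of PD0325901 alone were called for Irf3 (-0.18, adjusted p = 0.0137) and Irf4 (-0.36, adjusted p = 0.0199). Same-numbered libraries of this arm hardly deviated together, however (median correlation 0.07).

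Irf9 was higher by 0.26 ± 0.058 at 0.5 h (adjusted p = 0.00026) and by 0.40 ± 0.058 at 1 h (adjusted p = 1.63e-08), at 10.97 to 11.14 against 10.56 to 10.72. DMSO libraries without LPS were also higher than WT, by 0.36 for Irf9 and 0.50 for Irf1. Irf1 was higher by 0.31 ± 0.092 at 1 h (adjusted p = 0.00552), at 13.95 to 14.12, while its response was not called as different (-0.33 ± 0.14, adjusted p = 0.25). Irf5 was lower (-0.15 ± 0.053, adjusted p = 0.0186), a call lost without WT replicate 4 or 6. Irf7 was not called at 1 h (0.48, adjusted p = 0.0808), but was without WT replicate 8 (adjusted p = 0.0443) and with the replicate number as a block within arms (adjusted p = 0.043). Of 20 ISGF3 and IRF3 targets, 17 were higher than in WT at 0.5 h (median 0.60) and 19 at 1 h (median 0.78), where 14.5% and 16.4% of all genes were higher, with Ifit2 by 1.91 and Ifit1 by 1.74, and all 5 neutrophil markers were higher (median 1.61 at 1 h). Ifnb1 responded more strongly by 3.35 at 1 h (adjusted p = 5.58e-11).

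Without LPS, limma called no gene between PD0325901 and DMSO at 10 min (0% of genes), although 245 of 11971 had an unadjusted p below 0.05. Between 40 and 10 min of PD0325901 no member was called against 3.58% of genes, and between 70 and 10 min none against 6.09%. Irf3 (-0.18 ± 0.062, adjusted p = 0.0742) and Irf4 (-0.36 ± 0.13, adjusted p = 0.0997) were the nearest, and with the replicate number as a block within each arm both were called, at 0.0137 and 0.0199. That block applies a common correlation (0.32) to all arms. Same-numbered PD0325901 libraries of different times deviated together in only 14 of 33 pairs (median correlation 0.07), so the block calls rest on a pairing barely seen in this arm.

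RSKi47, the inhibitor of RSK, gave another pattern, in which the 1 h response of Irf4 was smaller and that of Irf3 was not called as different from WT. Irf3 was lower without LPS, and Irf1 and Irf9 were higher at the early times. Without LPS 4 members were called against 53% of genes, at 0.5 h 5 against 48.2%, at 1 h 6 against 52.8% and at 2 h 3 against 52.1%. The response differed in no member at 0.5 h against 0.0251% of genes, in 1 (Irf4) at 1 h against 5.54%, and in 3 (Irf1, Irf3 and Irf9) at 2 h against 21%.

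Irf4 with RSKi47 was at 6.86, 6.93, 7.04 and 6.27 without LPS and between 7.68 and 8.70 at 1 h, all below the WT range of 8.82 to 8.96. At 2 h it was at 7.28, 6.88, 6.81 and 6.68. Replicate 4 was the lowest at each of these times. The difference from WT was -0.75 ± 0.11 at 1 h (adjusted p = 3.32e-09) and -0.40 ± 0.12 at 2 h (adjusted p = 0.00221). At 0.5 h it was -0.19 and not called (adjusted p = 0.18), but was with the replicate number as a block within arms (-0.26, adjusted p = 0.0475). The 1 h response differed by -0.71 ± 0.15 (adjusted p = 0.000592), with -0.86 to -0.57 without any 1 replicate, and the 2 h response by -0.36 (adjusted p = 0.0938), which without RSKi47 replicate 4 was -0.45 and called (adjusted p = 0.0233), as it was without replicate 1.

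Irf3 was at 9.28, 9.14, 9.26 and 9.12 without LPS, below all WT libraries, and at 9.61, 9.72, 9.75 and 9.63 at 1 h. It rose by 0.48 (adjusted p = 9.36e-13), next to 0.46 in WT. The level was lower than in WT without LPS (-0.27 ± 0.049, adjusted p = 1.87e-06), at 0.5 h (-0.18 ± 0.054, adjusted p = 0.00448) and at 1 h (-0.25 ± 0.049, adjusted p = 9.23e-06). The difference of the 1 h responses was 0.02 ± 0.070 (adjusted p = 0.954) and lay between -0.01 and 0.07 when 1 replicate was left out. At 2 h it was 0.20 ± 0.073 (adjusted p = 0.0356), a call lost without RSKi47 replicate 2 or 4 or WT replicate 6 or 7 (0.16 to 0.23, adjusted p up to 0.168).

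Against DMSO without LPS 2 members were called, against 42.6% of genes. Both Irf3 (-0.22 ± 0.058, adjusted p = 0.00166) and Irf4 (-0.49 ± 0.13, adjusted p = 0.000857) were lower with RSKi47. The Irf1 and Irf9 differences changed sign with this control (-0.22, adjusted p = 0.133, and -0.14, adjusted p = 0.149) and were not called, as did those of Irf7 (-0.21, adjusted p = 0.592) and Irf8 (0.02, adjusted p = 0.914), which were called with neither control.

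Irf1 with RSKi47 was higher than in WT without LPS by 0.28 ± 0.10 (adjusted p = 0.0160), at 0.5 h by 0.67 ± 0.11 (adjusted p = 4.65e-07) and at 1 h by 0.27 ± 0.10 (adjusted p = 0.0194). The WT libraries of 0.5 h were split by replicate set, and the 0.5 h response of Irf1 was not called as different (0.30 to 0.50 without any 1 replicate). At 2 h it was at 14.35, 14.39, 14.43 and 13.78, lower than WT (-0.27 ± 0.11, adjusted p = 0.0353). Without replicate 4, the low library, the 2 h difference was -0.12 (adjusted p = 0.393), and without WT replicate 4, 5 or 6 the call was also lost. The first of the earlier calls was lost without RSKi47 replicate 3, and that at 1 h without RSKi47 replicate 2 or 3 or WT replicate 8 (0.18 to 0.39, adjusted p up to 0.165). The 2 h response of Irf1 differed by -0.55 ± 0.15 (adjusted p = 0.00428).

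Irf7 showed how far replicate 4 stood apart. It was at 11.98, 11.93, 12.22 and 10.80 without LPS, at 12.20, 12.18, 12.28 and 10.87 at 1 h and at 12.72, 12.82, 12.93 and 11.30 at 2 h, whereas the 3 libraries of 0.5 h, which had no replicate 4, had a median of 12.09. Irf7 was called as higher at 0.5 h (0.82 ± 0.27, adjusted p = 0.0100) and at 1 h (0.58 ± 0.25, adjusted p = 0.0426), the latter lost in 8 of 10 refits, those without RSKi47 replicates 1, 2 or 3 or WT replicates 4, 5, 6, 7 or 9. Without RSKi47 replicate 4, Irf7 was called at the other times too, at 0.65 without LPS (adjusted p = 0.0156; -0.21 with all RSKi47 replicates against DMSO) and 0.70 at 2 h (adjusted p = 0.0163), and Irf8 at 2 h, at 0.32 (adjusted p = 0.0262). The 2 h responses of Irf2 (0.31, adjusted p = 0.0389) and Irf8 (0.52, adjusted p = 0.0247) were then called as larger than in WT.

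Irf9 with RSKi47 was higher by 0.22 ± 0.065 without LPS (adjusted p = 0.00262), 0.32 ± 0.071 at 0.5 h and 0.29 ± 0.065 at 1 h, and its 2 h response was smaller (-0.34 ± 0.096, adjusted p = 0.0054). At 2 h it was called as lower than in WT only in the refit without RSKi47 replicate 3 (adjusted p = 0.0442). Irf2 was higher by 0.39 ± 0.083 at 2 h (adjusted p = 4.86e-05), at 10.63, 10.77, 10.76 and 10.17, and by 0.18 without LPS (adjusted p = 0.0389), a call lost without RSKi47 replicate 1, 2 or 3 or WT replicate 4 or 8 (adjusted p up to 0.115). Irf5 was lower at 0.5 h (-0.20 ± 0.065, adjusted p = 0.00893, lost without RSKi47 replicate 2) and at 1 h (-0.26 ± 0.059, adjusted p = 9.99e-05). Of 20 ISGF3 and IRF3 targets 12 were higher than in WT without LPS (median 0.51) and 12 at 1 h (median 0.49), where 26.8% and 26.5% of all genes were higher, and at 2 h 1 was lower. Of 5 neutrophil markers tested, 4 were higher without LPS (median 0.90) and all 5 at 2 h (median 1.51), and their part in the Irf7 and Irf9 differences was not tested.

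Side by side, the 1 h response of Irf3 was smaller than that of WT by 0.33 in Map3k8[D270A], 0.46 in Elk1-/-Elk4-/-, 0.35 in Nfkb1[SS/AA] and 0.36 with PD0325901 (differences -0.33, -0.46, -0.35 and -0.36), and apart by 0.02 with RSKi47. All 5 values share the WT libraries. For Irf4 the same differences were -0.21 (adjusted p = 0.513), -0.26 (adjusted p = 0.449), -0.74, 0.25 and -0.71, of which those of Nfkb1[SS/AA] and RSKi47 were called. Across all arms with LPS, 14 of 104 member and time responses differed from WT, and Irf7 and Irf8 gave none of them. Over the same 13 comparisons 5.69% of gene responses were called, from 0.0251% to 21% in a single comparison. With the replicate number as a block within each arm, the 2 h responses of Irf3 (-0.18, adjusted p = 0.0189) and Irf8 (0.52, adjusted p = 0.034) in Elk1-/-Elk4-/- and of Irf4 with RSKi47 (-0.36, adjusted p = 0.0278) were called too.

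**Figure D5:**
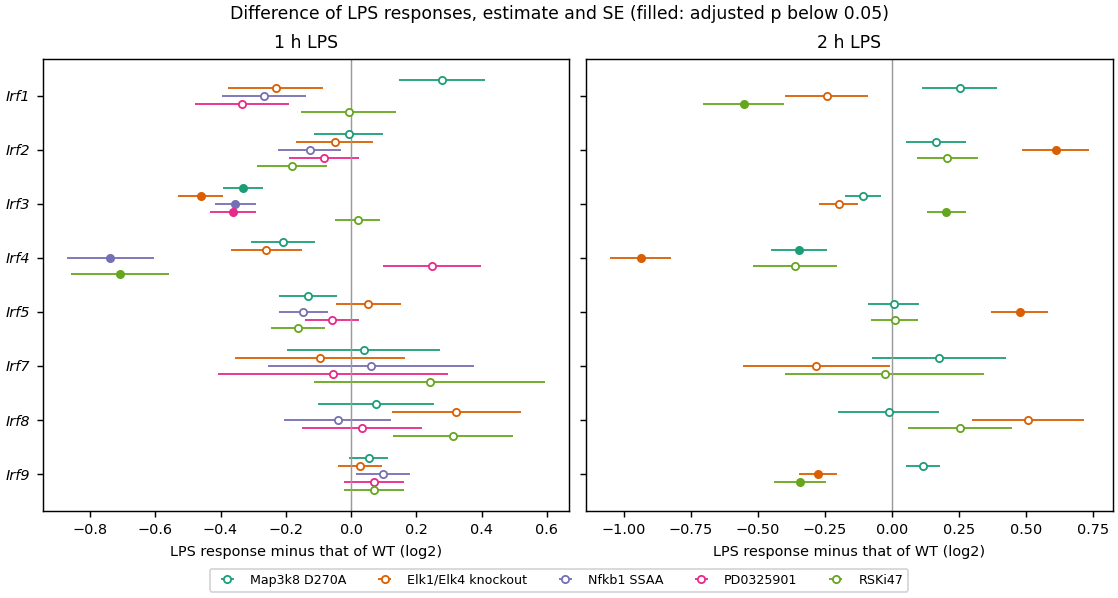
Difference between the LPS response of each arm and that of WT (log2) at 1 and 2 h for each member, with bars of 1 SE and filled points where the adjusted p was below 0.05. At 1 h Irf3 lies at -0.33 to -0.46 in the arms other than RSKi47, which lies at 0.02, and Irf4 lies near -0.7 in Nfkb1[SS/AA] and RSKi47.

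The arms were also compared with each other, in comparisons added after these values had been seen. The 1 h response of Irf3 was larger with RSKi47 than with PD0325901, by 0.38 ± 0.076 (adjusted p = 0.000193), and than in Map3k8[D270A], by 0.35 ± 0.070 (adjusted p = 0.00031). That of Irf4 was smaller with RSKi47 than with PD0325901 (-0.95 ± 0.16, adjusted p = 1.06e-05) and than in Map3k8[D270A] (-0.50 ± 0.15, adjusted p = 0.0449). RSKi47 against PD0325901 gave calls in 6.26% of genes and against Map3k8[D270A] in 2.93%, with 2 of 8 members called in each.

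Nfkb1[SS/AA] against PD0325901 gave 1 called member, Irf4 (-0.99 ± 0.15, adjusted p = 5.39e-07), against 4.03% of genes, and Irf3 differed by 0.01 (adjusted p = 0.983). Against Map3k8[D270A] 2 members were called, against 6.44% of genes, Irf4 (-0.53 ± 0.13, adjusted p = 0.005) and Irf1 (-0.55 ± 0.13, adjusted p = 0.00234), and Irf3 differed by -0.02 (adjusted p = 0.907). These members were chosen for the differences already seen, so the tests describe sizes and are no independent support.

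Genes near the IRFs in the pathway did not share 1 pattern in these arms. The 1 h response of Ticam1 was lower than in WT in Map3k8[D270A] (-0.25), Elk1-/-Elk4-/- (-0.57), PD0325901 (-0.44) and RSKi47 (-0.23), and higher in Nfkb1[SS/AA] (0.25). Irf2bpl, a relative of the IRF2-binding corepressors, responded less in Map3k8[D270A] (-0.47), Nfkb1[SS/AA] (-0.61), PD0325901 (-0.37) and RSKi47 (-0.60). Ets2, a transcription factor of the ETS family, responded less in Map3k8[D270A] (-0.43) and more in Nfkb1[SS/AA] (0.94) and with PD0325901 (0.84).

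The genes whose pattern was most like each member were sought over the 25 group means, which share libraries and the experiments they came from, so the correlations describe these groups and carry no test. Irf9 was closest to Rtp4 (r = 0.985), Mndal (0.975) and Ifit2 (0.968), of which Rtp4 and Ifit2 are interferon-inducible and in the target list above. Irf7 was closest to Trim30a (0.955), Phf11d (0.954) and Trim30d (0.952), and Irf1 to Ccrl2 (0.969), Marcksl1 (0.965) and Socs3 (0.964), a feedback inhibitor of cytokine receptors. Irf4 was closest to Zfp622 (0.944), Sde2 (0.929) and Stk35 (0.919), Irf8 to Usp42 (0.965), Urgcp (0.956) and Caml (0.948), and Irf5 to Dse (0.955), Abracl (0.952) and Psmd10 (0.951).

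Irf2 and Irf3 had the least similar neighbours. The closest to Irf2 were Arhgap17 (0.856), Zcchc11 (0.855) and Ipcef1 (0.854), and to Irf3 Fam43a (0.841), Pxdc1 (0.835) and Lcat (0.834). Among the members themselves, Irf7 and Irf9 followed each other most (r = 0.798), then Irf1 and Irf5 (0.736) and Irf5 and Irf8 (0.717), and Irf2 ran opposite to Irf8 (-0.628).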

How the data were processed

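RNA of mouse BMDMs was sequenced in 25 groups of libraries. The authors deposited 1 table of normalized log2 values for 18098 genes, made from strand-specific single-end reads. The submitters' processing notes name STAR 2.5.1b, RSEM 1.2.29, DESeq2 1.10.1 and the mm10 genome. The labels and methods do not say which transformation gave the log2 values, so a difference of 1 may not be an exact doubling for low genes, and no counts or depths were available to test. One value (57.73, Fosb) lay outside the range of the others (-2.40 to 19.81) and was treated as missing under a limit of 25.

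Group means were fitted with limma 3.58.1 in R 4.3.3, in 62 libraries for WT, Map3k8[D270A] and Elk1-/-Elk4-/- (11884 genes) and in all libraries for the others (11971 genes). Genes were kept where the unlogged value was at least 10 in at least 4 or 3 libraries, respectively. Contrasts were tested two-sided with Benjamini-Hochberg adjustment over all genes tested. A response is the change from no LPS in an arm less that in WT. Scripts were tested on simulated data first.

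Alternatives were no filter, a stricter filter (30), centring, quantile normalization, a trended robust fit, array weights, replicate blocks, the other set of libraries, replicate sets, other controls, minimum differences and leaving out each replicate of an arm, at all its times. Same-numbered libraries of different times deviated together in 30 of 30 WT pairs and 18 of 18 Nfkb1[SS/AA] pairs (correlation above 0.1), in 34 of 36 pairs of Map3k8[D270A], 20 of 21 of RSKi47, 20 of 24 of Elk1-/-Elk4-/- and 14 of 33 of PD0325901, and in 0 of 48 pairs between WT and Map3k8[D270A]. The numbers thus paired times within WT, Nfkb1[SS/AA], Map3k8[D270A] and RSKi47, in most pairs of Elk1-/-Elk4-/-, and hardly in PD0325901. The main models did not use this pairing. Libraries of WT and Map3k8[D270A] in the same replicate set correlated above that level in 214 of 264 pairs, and in the other set in 0 of 264.

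The members, the gene lists (TLR4 to IRF signaling, partners and corepressors, type I interferon, targets of ISGF3 and IRF3, targets of IRF1, and markers of macrophages, neutrophils, B cells, T and NK cells, dendritic cells and glia) and the tests were chosen with earlier results of these data known. All members were named, with the 3 genes most correlated with each over group means and, per list and comparison, at most 4 genes with the largest called change. Sequences and positions are from RefSeq (GRCm38.p6), where all 8 members matched. Irf2 overlaps 2 long non-coding RNA genes and Irf5 overlaps Tnpo3 at its 3′ end, so their values may include reads of the overlap. The authors used DESeq2 for their own comparisons, which were not used here.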

Additional observations from a re-analysis of the deposited data

Results flagged for a closer look

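The LPS response of a member differed from that of WT in 14 of 104 comparisons. For Irf3 these were the 1 h responses in Map3k8[D270A] (-0.33), Elk1-/-Elk4-/- (-0.46), Nfkb1[SS/AA] (-0.35) and with PD0325901 (-0.36), and the 2 h response with RSKi47 (0.20). For Irf4 they were the 1 h responses in Nfkb1[SS/AA] (-0.74) and with RSKi47 (-0.71) and the 2 h responses in Map3k8[D270A] (-0.35) and Elk1-/-Elk4-/- (-0.94). At 2 h Irf2 (0.61) and Irf5 (0.48) responded more in Elk1-/-Elk4-/-, Irf9 responded less in Elk1-/-Elk4-/- (-0.28) and with RSKi47 (-0.34), and Irf1 responded less with RSKi47 (-0.55).

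Of 160 sets of 4 to 6 libraries of 1 member and group, 11 held a library far from the others, where chance alone sets 1 apart in about 1 of 20. With RSKi47, replicate 4 was low for Irf1 at 2 h (13.78, next library 14.35), Irf7 at 1 h (10.87, next 12.18), Irf7 at 2 h (11.30, next 12.72) and Irf8 at 2 h (12.22, next 13.37). Over all genes that replicate lay at a root mean square distance of 0.227 (no LPS), 0.232 (1 h) and 0.291 (2 h) from the mean of the others of its group. WT replicate 7 was low at 2 h for Irf2 (10.00, next 10.25) and Irf7 (11.79, next 12.21), at a distance of 0.221 over all genes. It was the only WT library of the second replicate set at that time. The Map3k8[D270A] libraries of 2 h, from both sets, lay at 0.202 to 0.242. In Map3k8[D270A], Irf4 at 0.5 h was low in replicate 6 (6.72, next 6.92) and Irf8 at 1 h high in replicate 5 (11.99, next 11.81). In Elk1-/-Elk4-/-, Irf4 at 0.5 h was low in replicate 2 (7.32, next 7.40), and at 2 h Irf5 was high in replicate 4 (13.31, next 13.21) and Irf9 in replicate 2 (11.45, next 11.40).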

How the results depend on the processing

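Counts are of member and time calls. Array weights gave 10 calls for Map3k8[D270A] against WT (6 without weights), 7 for its response (2), 9 for the Elk1-/-Elk4-/- response (5), 4 for that of Nfkb1[SS/AA] (2), 10 for that of RSKi47 (4), 13 for PD0325901 with LPS against WT (6), 3 for its response (1) and 4 for PD0325901 without LPS (0). With the replicate number as a block within arms, PD0325901 without LPS gave 2 calls, and with the number as a block across arms 1, as it did with DMSO as the control. Same-numbered PD0325901 libraries hardly deviated together (median correlation 0.07). Blocks within arms lost Irf1 in Map3k8[D270A] at 1 h (adjusted p = 0.0926, limma), Irf9 there at 2 h (0.0536) and Irf8 in Elk1-/-Elk4-/- without LPS (0.0570), gained 7 calls and changed no call of WT or Nfkb1[SS/AA]. The fit of all libraries gave 1 call for the Map3k8[D270A] response and the first replicate set 6. The second set had 1 WT library at 2 h, so its count is not given. Requiring a difference of at least 1 left 4 calls for WT LPS (15), 4 for Elk1-/-Elk4-/- against WT (20) and 0 elsewhere, and at least 0.69 (ln 2) left 6, 4, 1 for the responses of Elk1-/-Elk4-/-, Nfkb1[SS/AA] and RSKi47 each, 2 for RSKi47 against WT (18) and 0 elsewhere. Quantile normalization gave 12 calls for WT LPS.

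Leaving out 1 replicate gave 15 calls throughout for WT LPS, 3 to 7 for Map3k8[D270A] against WT (3 without WT replicate 7) and 1 to 2 for its response, 17 to 23 and 5 to 6 for Elk1-/-Elk4-/-, 7 to 11 (7 without Nfkb1[SS/AA] replicate 6) and 2 for Nfkb1[SS/AA], 14 to 20 and 3 to 6 for RSKi47, 5 to 7 and 1 for PD0325901 and 0 for PD0325901 without LPS. Of 3016 member values under 35 such refits, 78 lost and 22 gained the call and none changed sign while called.

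Among values called under either setting, these signs turned. Irf9 in WT at 1 h was -0.13 and called after quantile normalization (adjusted p = 0.00229, limma). In Map3k8[D270A] at 2 h, array weights gave 0.32 for Irf7, 0.33 for Irf8 and 0.38 for the Irf8 response, and the first replicate set 0.40 and 0.50 for the latter pair. With DMSO as the control, RSKi47 without LPS gave -0.22 for Irf1 and -0.14 for Irf9, and, as added after the data had been seen, Elk1-/-Elk4-/- gave -0.16 for Irf4 and Nfkb1[SS/AA] -0.16 for Irf1, -0.34 for Irf4 and -0.19 for Irf9. The cause was not tested. No filter, the stricter filter, centring and the trended robust fit left 284, 287, 284 and 286 of 288 member values on their side of the threshold. Depth is unknown, so its limit on small differences could not be set.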
